A study of Apis mellifera with 2 samples.

Results

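Ecdysone synthesis and response was represented by 4 honey bee genes, Cyp314a1, Usp, Br-c and Mblk-1, chosen by name from the 5924 mRNAs counted in queen larvae. They were chosen with earlier results of these data known, so the number called below is not that of an unselected set. The rule took each row whose RefSeq record, version ignored, belongs to one of these genes. It found 1 row for each, so that all 4 were measured. The larvae were Apis mellifera ligustica queen larvae of the ZND No.1 stock, whole and fresh frozen, which had been grafted into queen cells and reared in colonies. In the treated group each larva was fed 5 µl of a miR-184 solution of 100 ng/µl, or 500 ng of miRNA, from 26 to 32 hours after hatching, and a further dose was given a day later. The control group was fed the same volume of DEPC-treated water, and each experimental group held 20 to 25 queen cells. Total RNA of each condition gave 1 library, and how many larvae went into it is not given in the sources used here. The hours above are those of feeding, and the methods of the study do not state the age at which larvae were taken for RNA. Whether the larvae of the 2 libraries were at the same stage was not tested. An untreated group was reared but not sequenced.

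Moulting and metamorphosis of insects are driven by ecdysteroids. Ecdysone is made from dietary sterols by a chain of cytochrome P450 enzymes, and it is turned into the active hormone 20-hydroxyecdysone in target tissues. The hormone binds a receptor of paired nuclear receptors, EcR and Ultraspiracle, which switches on a small set of transcription factors that in turn control the genes of the moult. In the honey bee the ecdysteroid titre and the juvenile hormone titre of the larva differ between the queen and worker castes. The 4 genes lie along this chain, from hormone activation through the receptor to the transcription factors of the response. Cyp314a1 (synonym shade) encodes the ecdysone 20-hydroxylase, known from Drosophila, and Usp (synonym RXR) encodes Ultraspiracle, the partner of the ecdysone receptor. Br-c encodes the Broad-Complex, a family of zinc finger proteins that is required for the larva to pupa transition in Drosophila. Mblk-1 encodes a transcription factor of the large-type Kenyon cells of the bee brain and is the homologue of Drosophila E93, an ecdysone-induced regulator of late metamorphosis. Its mRNA is also listed by the study among the predicted targets of miR-184.

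The libraries were counted by 3′ tags, short sequences beside the Nla III site nearest to the poly(A) end, so that a value is a number of tags for an mRNA and does not grow with its length. They held 1353258 tags (treated) and 1338190 tags (control). Levels are given in TPM, tags scaled to a library total of 1000000, and 1 tag was worth 0.739 TPM (treated) or 0.747 TPM (control). No mRNA was listed with 1 tag, and a 0 in the table can therefore hide a single tag. A count of 0 allows up to 3 tags, or 2.22 TPM (treated) and 2.24 TPM (control). Of tissue markers with a row, the larval storage protein HEX70b of the fat body was at 43061 TPM (treated) and 44976 TPM (control). The 3 royal jelly protein mRNAs summed to 8.87 and 9.71 TPM, and the 4 troponin mRNAs of muscle to 671 and 543 TPM. The 2 immune mRNAs went opposite ways, with PPO at 75.4 and 20.9 TPM and Def1 at 40.6 and 51.6 TPM. PPO was the one tissue marker that the call rule given below called, in the higher direction, and it is named after its values were seen. The part of these tissues in the values below was not tested, and in whole larvae fewer cells of a type and less RNA per cell cannot be told apart. Ratios are treated over control after scaling to the library total, and intervals are exact 95% intervals that cover counting error only. With 1 library per condition no difference has a replicate check, and each p sets one library against the other rather than miR-184 against water.

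Of the 4 genes, 2 were lower and 1 was higher in the larvae fed miR-184 by a rule with the thresholds of the study, and the remaining one was not called. The rule asks for a ratio over 2 together with p under 0.01 in the Audic and Claverie count test, an exact test of a tag count given the other library's count and both totals. Which library was conditioned on, how the tails were taken and how a listed 0 was treated in the study are not given in the sources used here, so the calls and counts below belong to the form of the test used here. Cyp314a1 and Mblk-1 were the lower ones, Br-c the higher one, and Usp was not called. Over all 5924 mRNAs the same rule called 6.7% lower and 2.31% higher. Among the 76 mRNAs with a curated RefSeq record, which is the kind that all 4 genes have, it called 6 (7.89%) lower and 4 (5.26%) higher, these genes included. The median log2 ratio of the 4 genes was -0.98 with the listed 0 of Br-c set to 3 tags, and the median of all mRNAs was -0.02. Together the 4 genes had 148 treated and 208 control tags, most of them from Usp.

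**Figure D1:**
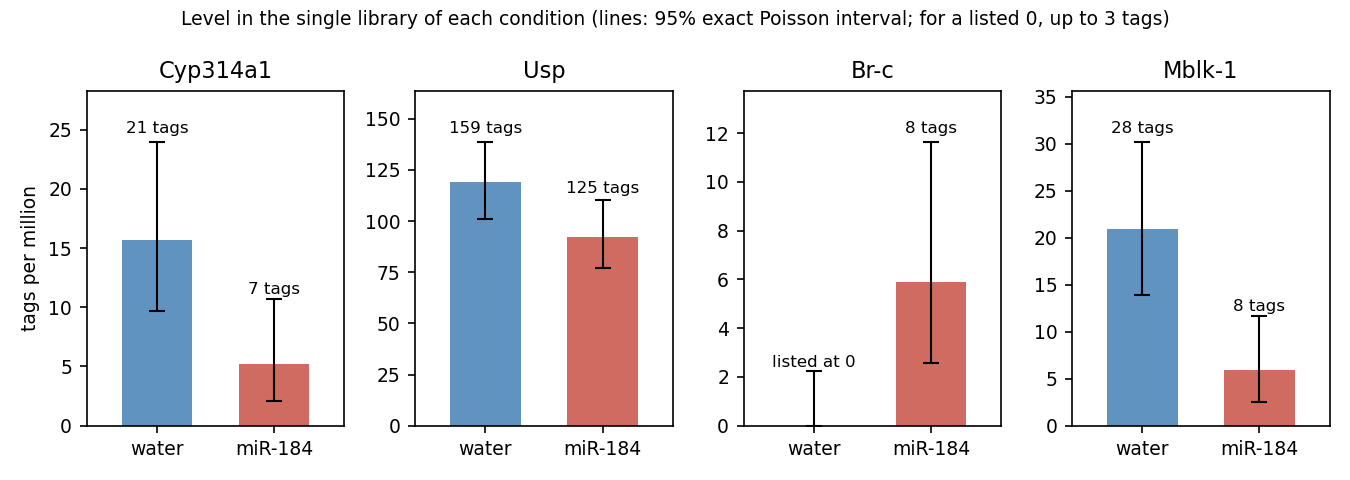
Level in TPM (vertical axis, linear from 0, its own scale in each panel) of the 4 ecdysone genes in the control library (water) and the treated library (miR-184), with exact Poisson 95% intervals of the counts as lines. The number of tags stands above each bar. The intervals of Cyp314a1 and Usp overlap between the libraries, and those of Mblk-1 do not. For Br-c the control line ends at the 3-tag floor of 2.24 TPM, a one-sided limit, and a two-sided interval of 0 tags would reach 2.76 TPM and overlap the treated interval, which starts at 2.55 TPM.

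Hormone activation was represented by Cyp314a1 (NM_001040257.1). Its mRNA was counted with 7 treated and 21 control tags. This corresponds to 5.17 TPM (95% exact Poisson interval 2.08 to 10.7) in larvae fed miR-184 and 15.7 TPM (9.71 to 24.0) in larvae fed water. The treated library was thus the low one, by 3.03-fold, although the intervals of the levels overlapped. The log2 ratio was -1.60, with an exact 95% interval from -3.08 to -0.31 (p = 0.00744, two-sided exact count test). With a control count of 21, 7 was the largest treated count that the rule calls lower, and 8 tags would have given p = 0.0148 by the same exact test. Cyp314a1 therefore passed by a single tag, and with the control count conditioned on the treated count the exact p was 0.0115 and it was not called. After Benjamini-Hochberg adjustment over all 5924 mRNAs its Audic and Claverie exact p was 0.0384, and p ran from 0.00719 to 0.163 over the 12 alternatives.

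The enzyme belongs to the cytochrome P450 family, of which 7 genes were recognised by symbol or synonym in the RefSeq table and 3 had a row. P450 mRNAs under other symbols, or among the mRNAs paired with no gene, are not covered, so these rows do not describe the family. The other two were Cyp4g11, of a subfamily that makes cuticular hydrocarbons in insects, and Cyp6as5, of a subfamily that detoxifies plant compounds in the bee. Cyp4g11 had 5 treated and 12 control tags, a log2 ratio of -1.28 with an exact 95% interval from -3.14 to 0.33 (exact count test, p = 0.0916). Cyp6as5 had 3 tags in the treated library and was listed at 0 in the control library, which allows as many tags, and no ratio is given. Thus 1 of the 3, Cyp314a1 itself, was called lower and none higher, where the rule called 6.7% of all mRNAs lower and 2.31% higher.

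The receptor was represented by Usp (NM_001011634.2), the best counted of the 4 genes. It had 125 treated and 159 control tags. The levels were 92.4 TPM (95% exact Poisson interval 76.9 to 110) and 119 TPM (101 to 139), and these intervals overlapped. The log2 ratio was -0.36, with an exact 95% interval from -0.71 to -0.02, so that the treated library held 77.7% of the control level. By counting error alone a reduction of 1.64-fold or more lay outside the interval, and so did no change at all. The rule did not call Usp, since the ratio was under 2 and the p of the exact count test was 0.0348. For a control count of 159 the rule needed 80 treated tags or fewer. A p under 0.05 with a lower treated level was common among mRNAs of this depth. It was found for 23.6% of the 767 mRNAs with a mean of 100 to under 300 tags, and for 16.2% of all mRNAs. Of these 767 mRNAs, 162 had a lower ratio than Usp, and the full rule called 5.87% lower.

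EcR, the hormone binding partner of Ultraspiracle, and the nuclear receptors E75 and Err are named in the RefSeq table. No counted mRNA could be matched to them, and mRNAs paired with no gene are not covered. Of the 4 nuclear receptor genes that the list found in this table, Usp had a row.

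The transcription factors of the response were called in opposite directions. Br-c (NM_001040266.1) had 8 treated tags and was listed at 0 in the control library. The treated level was 5.91 TPM (95% exact Poisson interval 2.55 to 11.6), and the control level lay at most at 2.24 TPM if a count of 0 allows 3 tags. Against this floor Br-c was 2.64-fold higher in the treated library, a value that takes the 8 tags as they stand and leaves out their counting error. If the listed 0 hid 1 tag, the two-sided limit of the control level would be 4.16 TPM. The call rests on how the listed 0 is read. Taken as 0 tags, the exact 95% interval of the ratio started at 1.69-fold higher, the exact count test gave p = 0.00817, and 8 was the smallest treated count that the rule calls higher. Taken as 1 tag, which the table does not distinguish from 0, the interval started at 1.06-fold, the exact test gave p = 0.0407, and Br-c was no longer called. With 3 control tags, the count at the floor, the interval started at 0.633-fold and so included no change (exact test, p = 0.234). With 7 treated tags against 0 the same exact p was 0.0162. Of the 420 mRNAs listed at 0 in the control library, 14 (3.33%) were called higher and 3 of these had 8 treated tags, Br-c among them. The other 406 had 2 to 7 treated tags. Each of the 420, Br-c included, thus had its row only through its treated tags. The p values of Br-c and the shares given here make no allowance for that. Of the 1500 mRNAs with a mean of 2 to under 10 tags, the rule called 1.2% higher. The RefSeq table lists 15 transcripts of Br-c, and the deposited value belongs to 1 curated record, so that tags of other isoforms with another 3′ end may have been counted elsewhere or not at all.

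Mblk-1 (NM_001011629.1) had 8 treated and 28 control tags. The treated level was 5.91 TPM (95% exact Poisson interval 2.55 to 11.6) and the control level 20.9 TPM (13.9 to 30.2), and these intervals did not overlap. How many other mRNAs of this depth have intervals that do not overlap was not counted. The treated library was lower by 3.54-fold, with an exact 95% interval of the fold from 1.57 to 8.99. The exact count test gave p = 0.000667, and after Benjamini-Hochberg adjustment over all mRNAs p = 0.00503. Over the 12 alternatives its p ran from 0.000635 to 0.0948. Mblk-1 was the one gene of the 4 that passed with room to spare, since with 28 control tags a treated count of up to 11 would have been called lower. Of the 1217 mRNAs with a mean of 10 to under 30 tags, 59 (4.85%) had a lower ratio than Mblk-1 and 78 (6.41%) a lower ratio than Cyp314a1, and 10.3% of these mRNAs were called lower. The RefSeq table lists 4 transcripts of Mblk-1, and 1 curated record carries the count.

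**Figure D2:**
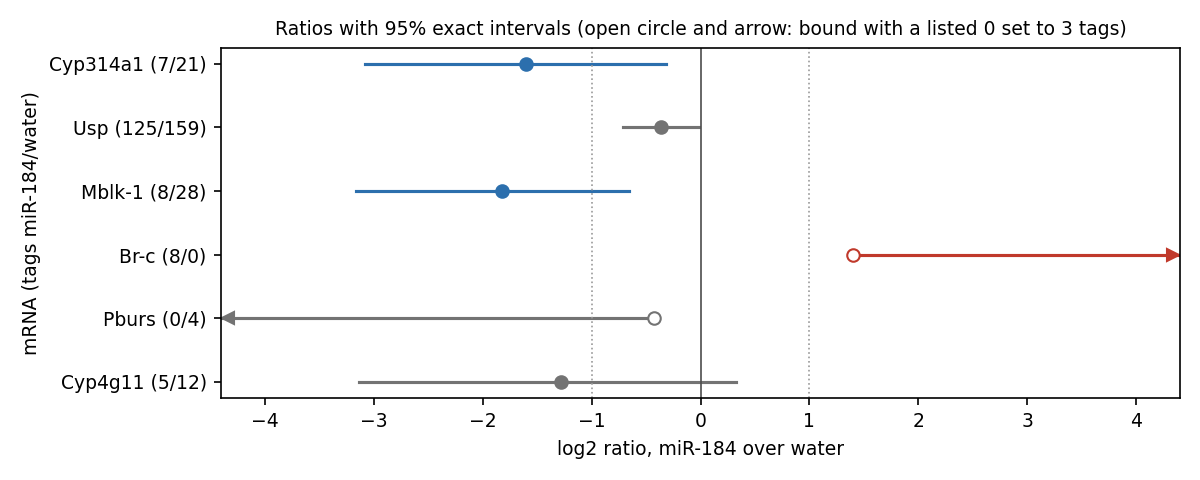
Log2 ratio of treated over control (horizontal axis) with exact 95% intervals for the mRNAs of the ecdysone, moulting and P450 lists, with the tags of the treated and control library beside each name. Filled blue marks were called lower, the red mark (Br-c) was called higher, grey marks were not called, and dotted lines mark a ratio of 2. Open circles with arrows (Br-c and Pburs) are bounds that set the listed 0 to 3 tags, leave out counting error and carry no interval. Cyp6as5, which has no ratio, is left out.

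E74 and Kr-h1, further transcription factors of the response to ecdysone and juvenile hormone, are named in the RefSeq table. No counted mRNA could be matched to either, and mRNAs paired with no gene are not covered. Of the hormones that control shedding of the cuticle, Pburs, a subunit of bursicon that hardens the new cuticle, had a row among 5 genes of that list. It was listed at 0 in the treated library against 4 control tags (exact count test, p = 0.0608), and it was not called. Over the 5 lists for synthesis, receptors, early response, coregulators and moulting hormones, 5 of 16 named genes had a row, and 2 of these were called lower, 1 higher and 2 not called, beside 6.7% lower and 2.31% higher of all mRNAs. The 5 are Pburs and the 4 genes above, so that the lists add no call to theirs. Their median log2 ratio was -0.43, which is the bound of Pburs with its listed 0 set to 3 tags, beside -0.02 for all mRNAs. Over the 3 of these rows whose mean reached 10 tags it was -1.60, the value of Cyp314a1. None of the 27 named cuticle genes and neither of the 2 coregulators had a row that could be matched.

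**Figure D3:**
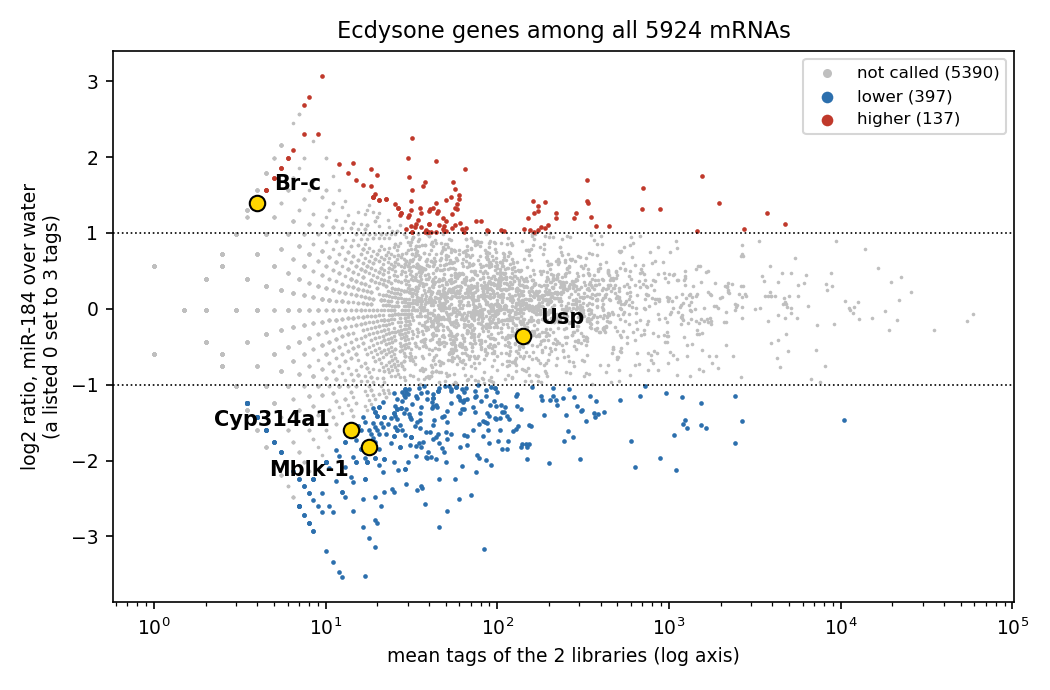
Log2 ratio of treated over control (vertical axis) against the mean tags of both libraries (horizontal axis, log scale) for the 5924 mRNAs, with the 4 ecdysone genes in yellow, 397 mRNAs called lower in blue and 137 called higher in red. In the plot Cyp314a1 and Mblk-1 lie beside each other at 14 and 18 mean tags, Br-c lies at 4 and Usp at 142.

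Among the 68 mRNAs to which the RefSeq table gives a name of their own rather than a LOC number, the profile nearest to that of Mblk-1 was Cyp314a1, and the nearest to Cyp314a1 was Mblk-1 (Euclidean distance of 0.43 between the pairs of log2(TPM + 1) values). After it came, for both, the glutamate receptor mGlutR1 with 7 treated and 14 control tags, and the nitric oxide synthase NOS with 7 and 13 tags. The pairing holds only within these 68, since an mRNA with a LOC number had exactly the tags of Cyp314a1, 7 treated and 21 control. The profile nearest to Usp was that of the elongation factor EF1a-F2, with 128 and 142 tags (distance 0.17), followed by the alpha-glucosidase Hbg3 with 94 and 164 and by the cystathionine beta-synthase Cbs with 153 and 116. The profile nearest to Br-c was that of Ip3k, an inositol trisphosphate kinase with 13 treated tags and a listed 0 in the control library (distance 0.62), followed by Cyp6as5 and c-mos with 3 treated tags each. With 1 library per condition each profile consists of a pair of values, and likeness in it describes these libraries alone.

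The directions were the same under the 3 other scalings, which shifted every log2 ratio by at most 0.02, but the calls depended on the spread assumed between libraries. The negative binomial exact test of edgeR with an assumed coefficient of variation of 0.2 gave p = 0.0125 for Mblk-1, 0.0127 for Br-c, 0.0445 for Cyp314a1 and 0.422 for Usp, so that none of the 4 passed 0.01. With 0.4 the exact p was 0.0328 for Br-c, 0.0948 for Mblk-1, 0.163 for Cyp314a1 and 0.675 for Usp. For Br-c both values took the listed 0 as 0 tags, and other readings of it were not run with an assumed spread. Over all mRNAs the number lower was 211 with 0.2 and 18 with 0.4, and the number higher was 51 and 4.

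**Figure D4:**
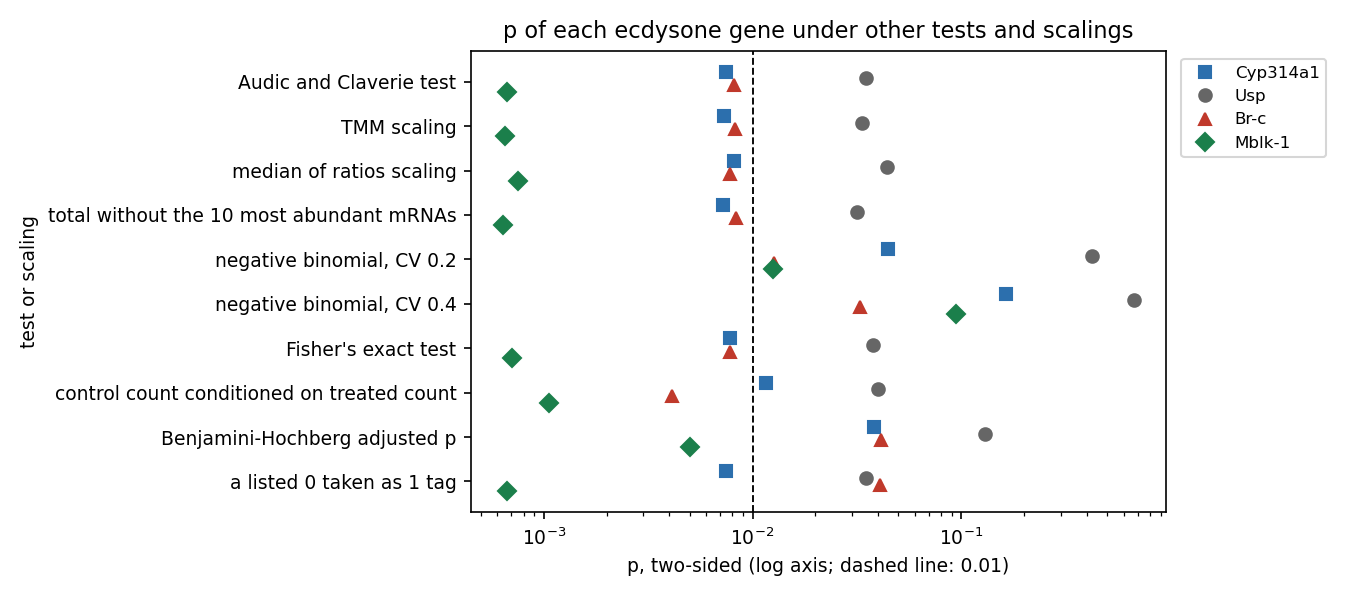
Two-sided p (horizontal axis, log scale, dashed line at 0.01) of the 4 ecdysone genes under the Audic and Claverie test with 4 scalings, under other tests and with a listed 0 taken as 1 tag (vertical axis). Usp lies above the line throughout, and all 4 genes lie above it with an assumed coefficient of variation (CV). In the other settings Mblk-1 stays below it, Cyp314a1 lies above it after adjustment and with the control count conditioned on the treated count, and Br-c after adjustment and with its listed 0 taken as 1 tag.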

How the data were processed

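The authors made 1 tag profiling library per condition, mapped its reads to Apis mellifera mRNAs and the genome and took, for each gene, the sum of reads with a unique match. Aligner, build and filters are not given in the sources used here. The deposited values are whole numbers per mRNA record that the labels call TPM, but the column totals differ and are not those of TPM, so they were read as tag counts. Both columns were used. Records were paired with gene symbols through the RefSeq table of Amel_HAv3.1, version ignored, which gave 2801 of 5924 a gene. No coordinates are printed, since its build may differ.

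Counts were scaled to the library total, with a listed 0 set to 3 tags in the ratio and taken as 0 in the test. The Audic and Claverie test and its thresholds are those the study names. Its form here (two-sided, 2 times the smaller tail, treated count given the control count) was chosen for this work. It was checked on simulated data drawn with counting error only, which cover neither spread between libraries nor a single tag hidden in a listed 0. The quasi-likelihood test of edgeR needs replicates and could not be fitted. Level intervals are exact Poisson, ratio intervals exact Clopper-Pearson. Tags carry no molecular identifiers, so both cover counting error only. Genes were named if they were among the 4 members, on a pathway list, or among the 3 nearest profiles of a member. The members and lists were chosen with earlier results of these data known, and symbols were added to the lists once the table was found to hold no gene descriptions, which added no row. Alternatives were 3 scalings, negative binomial and Fisher's exact tests, thresholds, filters and readings of a listed 0. Setting a listed 0 to 3 tags was chosen after seeing the data. TMM scaling and the negative binomial test were run in edgeR 4.0.16 under R 4.3.3, and all else in Python 3.11.15 with scipy 1.17.1, pandas 2.3.3, numpy 2.4.6 and matplotlib 3.10.9.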

Additional observations from a re-analysis of the deposited data

How the results depend on the processing

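No paired analysis was possible because there was 1 library of each condition, and none could be omitted in turn. Some of the 12 alternatives could not remove a call, so the tallies below are no measure of robustness. A p under 0.05 and a ratio over 1.5 only loosen the rule. Reading a listed 0 as 1 tag leaves the values of Mblk-1 and Cyp314a1 unchanged. Mblk-1 (log2 ratio -1.82) was called under 10 of 12 alternatives and lost its call with both assumed coefficients of variation. Cyp314a1 (-1.60) was called under 8 of 12 and lost its call with these, with the control count conditioned on the treated count (exact p = 0.0115) and with an adjusted p under 0.01. Br-c (1.40 against 3 tags) was called under 8 of 12. Br-c lost its call with both coefficients of variation and with a listed 0 taken as 1 tag, where the log2 ratio became 2.98. It also lost its call with an adjusted p (Audic and Claverie exact test, Benjamini-Hochberg p = 0.0410). Over the alternatives its p ran from 0.00411 to 0.0410, and the upper end is this adjusted p. No alternative put 3 control tags into the test, a count for which the Audic and Claverie exact test gave p = 0.234. Usp was called under none, with p from 0.0318 to 0.675. The 397 mRNAs lower and 137 higher became 211 and 51 with a coefficient of variation of 0.2 and 18 and 4 with 0.4. The number higher was 90 with an adjusted p under 0.01 and 312 with a ratio over 1.5. With a ratio over 2 and no p, an alternative chosen after seeing the data, 745 were lower and 323 higher. The median log2 ratio of the ecdysone and moulting lists moved from -0.43 to -1.60 over rows whose mean reached 10 tags, which drops Br-c and Pburs. These moves follow from the thresholds, the assumed spread and the rows left. At a mean of 4 to 18 tags, the depth of Br-c, Cyp314a1 and Mblk-1, 1 tag decides 2 of the 3 calls.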
